A study of Mus musculus with 2 samples.

Results

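The genes described here are those that the KEGG pathway column of the deposited table assigns to the cell cycle, 77 of the 7976 genes listed on the arrays. They were found by that label alone, with no measured value, through 91 of the 9143 probes, and were divided by symbol into 12 classes of protein role. The label, the classes and the phase lists used below were chosen with earlier results of these data known. Of the 77 genes, 50 were listed on both arrays, 26 on replicate 2 only and 1 on replicate 1 only. RNA came from untreated primary CD11b-positive mouse cells of 2 genotypes, IRF8 KO, which lack interferon regulatory factor 8, a transcription factor that directs the development of myeloid cells, and wt. CD11b is a surface integrin of myeloid cells. Each of 2 two-colour arrays, described as biological replicates, carried IRF8 KO RNA in Cy3 and wt RNA in Cy5, so that the effect of the dye and that of the genotype cannot be told apart. The organ, the number of animals behind an array and the way the cells were selected are not given in the labels used here.

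A cell divides once by passing through G1, S, G2 and M phase. Cyclins switch on cyclin-dependent kinases (CDKs), D-type cyclins with Cdk4 and Cdk6 in G1, cyclins E and A with Cdk2 in S phase, and cyclins A and B with Cdk1 in mitosis. Origins of replication are licensed in G1 by the origin recognition complex, Cdc6 and the Mcm helicase and fire in S phase, the spindle checkpoint holds the cell until its chromosomes are attached, and the anaphase-promoting complex then destroys securin and the mitotic cyclins. Transcripts of many of these genes rise and fall with the phase, whereas others, such as most subunits of the anaphase-promoting complex, are made throughout the cycle. In myeloid tissue dividing precursors hold these transcripts, and mature neutrophils and macrophages hold few of them.

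Each ratio is given as log2 of IRF8 KO over wt, and a mean ± SD is over n = 2 arrays. The deposited ratio equals that of the raw signals less a constant, 0.026 on replicate 1 and 0.392 on replicate 2. The median of the 5192 genes on both arrays was 0.03 on replicate 1, -0.42 on replicate 2 and -0.21 for their mean, and shifts below are given relative to it. Genes were tested with limma and Benjamini-Hochberg adjustment over those 5192 genes. Its estimated spread was the same for every gene, with a standard error of 0.399 and a 95% interval of 0.78 on either side, so a call required a mean of at least 1.18 in size. Itgam, the gene of CD11b, had raw signals of 7883 and 15036 in IRF8 KO cells, against 1862 and 3527 in wt cells (replicates 1 and 2). Neutrophil granule genes were called higher in 6 of 9 cases and none lower, with a median 2.56 and 0.63 above all genes on replicates 1 and 2. Monocyte and macrophage markers were called lower in 7 of 10 cases and higher in 1, with a median shift of -2.79 and -0.56. B cell markers had 0 of 8 called, with shifts of -0.17 and -1.08, erythroid markers 0 of 3, with -0.87 and -0.43, and stem and progenitor markers 1 of 2 lower, with -1.41 and 0.01. Summed over their probes, neutrophil granule genes gave 520313 and 674425 in IRF8 KO cells, against 165837 and 418324 in wt cells. Monocyte and macrophage markers gave 47956 and 73037 in IRF8 KO cells, against 229524 and 105244 in wt cells, and B cell markers 93853 and 165814 in IRF8 KO cells, against 99665 and 277732 in wt cells. Erythroid markers gave 28472 and 8611 in IRF8 KO cells, against 48700 and 13874 in wt cells. Stem and progenitor markers gave 2690 and 18082 in IRF8 KO cells, against 7523 and 8007 in wt cells. Their sum was thus lower in IRF8 KO cells on replicate 1 and higher on replicate 2. Each sum takes every probe listed on that array, whereas the calls take genes on both. None of 10 T and NK cell markers was listed on both arrays. The part of these other gene groups in the cell cycle results was not tested. In RNA of mixed cells, a change in the number of dividing cells and one in the RNA of each cell cannot be told apart.

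Of the 50 cell cycle genes on both arrays, 6 rose in IRF8 KO cells and 1 fell. Those that rose are 12% of the members, against 2.81% of all 5192 genes, and the 1 that fell is 2%, against 3.41%. At the shares of all genes a class of a few genes would mostly hold no call. A class below is therefore not set apart by a lack of calls. The 6 were the cyclin gene Ccna2, the replication gene Cdc45, the mitotic kinase gene Plk1, the spindle checkpoint genes Bub1b and Mad2l1, and Cdc20, an activator of the anaphase-promoting complex. Ccnd1, a D-type cyclin of G1, was the gene that fell. The same 6 and 1 were the only members at least 2-fold in 1 direction on both arrays, against 2.16% higher and 2.75% lower among all genes. Replicate 2 lay close to that limit for Cdc20 (1.02) and Ccnd1 (-1.004). The other 43 members ranged from -1.06 to 1.06 and none passed. The members' median of 0.04 lay 0.24 above that of all genes, and 0.26 and 0.22 above it on replicates 1 and 2 alone. Their upper quartile was 0.49 against 0.09 for all genes, and their lower quartile -0.42 against -0.49.

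**Figure D1:**
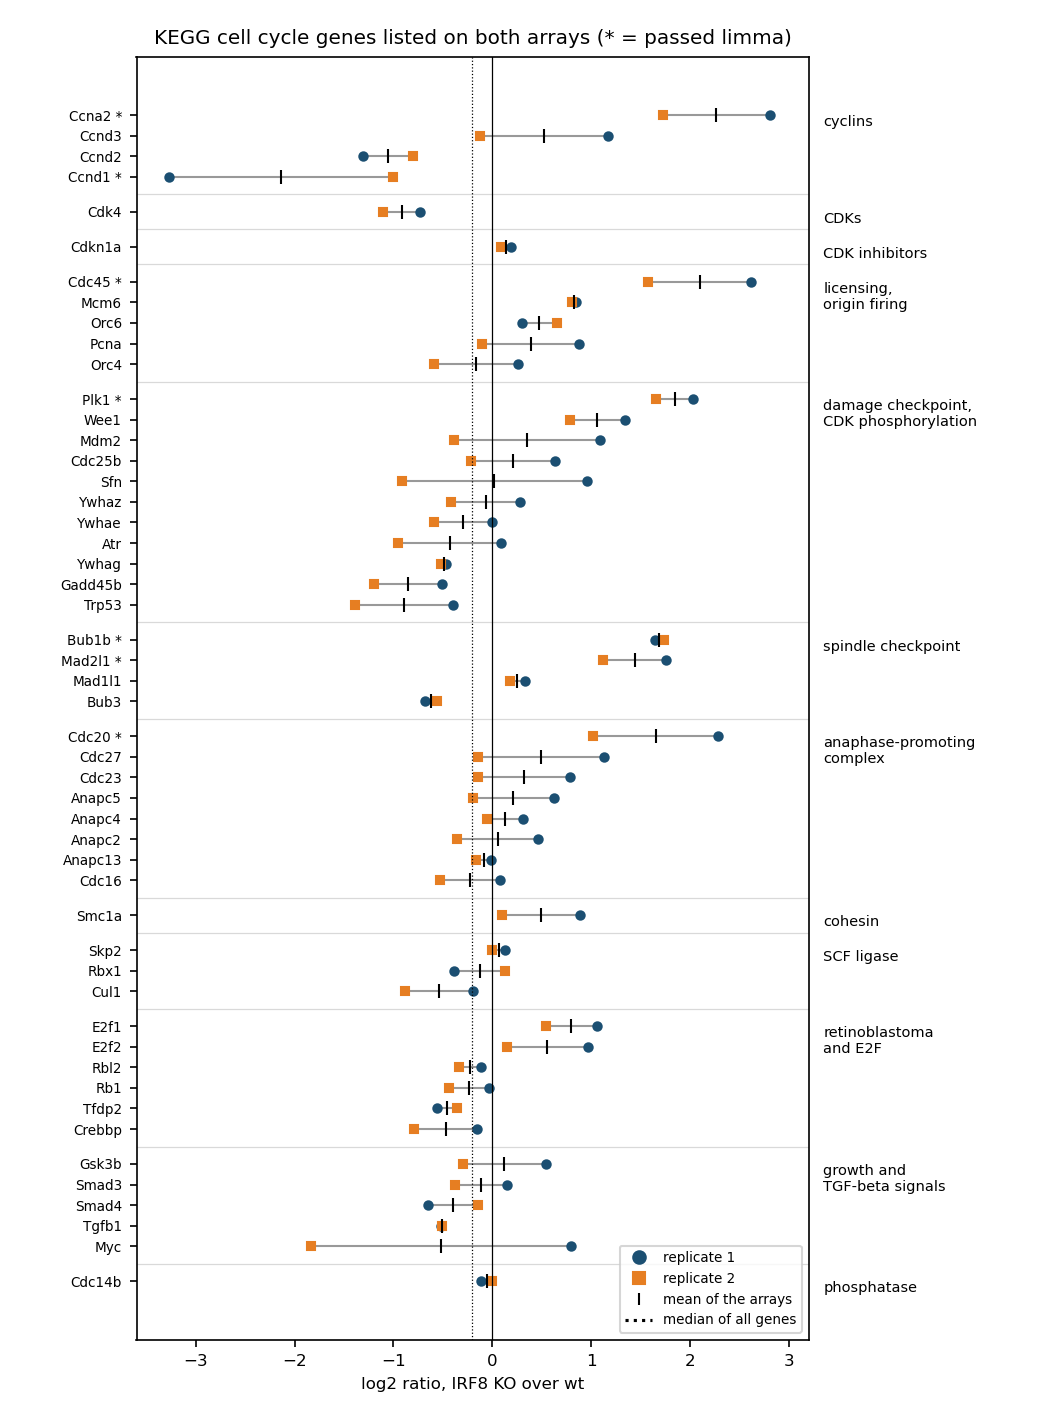
Log2 ratios of IRF8 KO over wt (horizontal axis) for the 50 cell cycle genes listed on both arrays, grouped by role; the circle is replicate 1, the square replicate 2, the tick their mean and the dotted line the median of all genes, -0.21. The 6 starred genes on the right stand at 1.44 to 2.27, starred Ccnd1 stands at -2.14, and the unstarred genes lie between -1.06 and 1.06.

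The promoter windows of 5 of the 6 genes that rose are shown, chosen by their calls and not by their letters. Ccna2 had no window in the promoter set used. Of the 5, 4 hold letters known from cell cycle promoters. The windows come from RefSeq (build GRCm38.p6, whereas the probe positions given with the values below are on mouse build 37), run 5′ to 3′ along the gene and span 250 bases before to 50 after the start. They lie at chr16:18811923-18812222 (minus strand) for Cdc45, chr7:122159185-122159484 (plus) for Plk1, chr2:118597961-118598260 (plus) for Bub1b, chr4:118437294-118437593 (minus) for Cdc20 and chr6:66534971-66535270 (plus) for Mad2l1. Capitals mark, on either strand, the CHR element TTTGAA and the CCAAT box.
Cdc45: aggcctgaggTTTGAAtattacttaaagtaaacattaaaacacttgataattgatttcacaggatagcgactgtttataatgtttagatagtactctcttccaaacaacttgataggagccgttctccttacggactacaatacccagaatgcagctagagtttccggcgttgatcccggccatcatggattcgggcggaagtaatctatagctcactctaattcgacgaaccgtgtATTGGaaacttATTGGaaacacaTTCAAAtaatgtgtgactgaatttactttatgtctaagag
Plk1: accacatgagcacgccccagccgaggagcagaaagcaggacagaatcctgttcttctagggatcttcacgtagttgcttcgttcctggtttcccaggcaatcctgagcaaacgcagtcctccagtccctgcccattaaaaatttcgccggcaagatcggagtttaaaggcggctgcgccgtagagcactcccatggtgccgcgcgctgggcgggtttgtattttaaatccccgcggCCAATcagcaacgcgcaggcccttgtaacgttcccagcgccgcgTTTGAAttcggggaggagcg
Bub1b: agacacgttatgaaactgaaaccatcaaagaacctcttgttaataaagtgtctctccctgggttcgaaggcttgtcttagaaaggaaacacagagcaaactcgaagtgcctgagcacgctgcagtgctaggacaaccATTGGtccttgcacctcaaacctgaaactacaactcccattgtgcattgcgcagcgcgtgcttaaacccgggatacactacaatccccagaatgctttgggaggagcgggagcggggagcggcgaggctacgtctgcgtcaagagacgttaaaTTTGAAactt
Cdc20: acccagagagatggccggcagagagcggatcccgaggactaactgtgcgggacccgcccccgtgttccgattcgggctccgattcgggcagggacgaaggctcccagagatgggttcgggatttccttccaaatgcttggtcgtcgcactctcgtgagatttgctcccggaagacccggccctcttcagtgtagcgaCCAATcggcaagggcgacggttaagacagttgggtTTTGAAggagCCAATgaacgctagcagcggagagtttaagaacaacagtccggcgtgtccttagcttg
Mad2l1: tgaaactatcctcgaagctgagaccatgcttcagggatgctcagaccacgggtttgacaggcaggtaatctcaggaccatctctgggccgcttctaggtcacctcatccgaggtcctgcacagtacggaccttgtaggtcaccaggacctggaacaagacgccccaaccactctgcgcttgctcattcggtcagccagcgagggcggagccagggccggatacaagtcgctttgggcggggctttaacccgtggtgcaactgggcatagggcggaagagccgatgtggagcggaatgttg

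As background, the CHR element is known as a site of the DREAM and B-Myb complexes, the CCAAT box as the site of NF-Y and E2F sites as those of the E2F factors. The E2F letters searched were TTTGGCGC or TTTCCCGC or TTTCGCGC or TTTGGCGG. All motifs were read on both strands, letters of different motifs overlapped in 0 member windows, and a gene counts where any of its windows holds the letters. Of 77 members 62 had a window. Cdc45, Plk1, Bub1b and Cdc20 each held both the CHR letters and a CCAAT box, and Mad2l1 held neither. Both together were held by 8.97% of the 27025 genes with a window and by 7.75% of the 3884 such genes on both arrays. The CHR letters began at position 31 after the start in Plk1, 41 in Bub1b, 11 in Cdc45 and -18 in Cdc20, and Cdc45 held a further copy at -240. The CCAAT letters began at -14 in Plk1, at -113 in Bub1b, at -13 and -2 in Cdc45 and at -53 and -8 in Cdc20. None of the 5 held the E2F letters.

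Among the 4 cyclins on both arrays, Ccna2 rose, Ccnd1 fell, and Ccnd2 and Ccnd3 did not pass. Ccna2, whose protein acts in S and G2 phase, had raw signals of 5330 and 11265 in IRF8 KO cells, against 748 and 2596 in wt cells, on replicates 1 and 2. The IRF8 KO signal was the brighter on both arrays. Ccna2 rose 4.81-fold (2.27 ± 0.76, SD, n = 2; limma adjusted p = 2.56e-06; probe on chromosome 3, 36463814 to 36463884), and the call held under all 7 alternatives with a test. Only centred arrays, loess and an intensity trend could alter its value or spread. The settings on probes and on dim or bright spots left its 1 probe as it was. The B-type cyclins Ccnb1 and Ccnb2, which drive mitosis with Cdk1, were listed on replicate 2 only and have no test. The Ccnb1 probes gave 9436 and 7945 in IRF8 KO cells and 2222 and 1569 in wt cells, a log2 ratio of 1.69 and 1.95, and the second of them matched 2 gene IDs. Ccnb2 gave 8651 in IRF8 KO cells and 1868 in wt cells, a log2 ratio of 1.82. On that array Ccna2, at 1.73, lay between the 2 Ccnb1 probes.

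The D-type cyclins, which couple growth signals to the start of the cycle, gave lower or mixed values. Ccnd1 had raw signals of 3279 and 2773 in IRF8 KO cells, against 31175 and 4238 in wt cells, on replicates 1 and 2. The wt signal was the brighter on both arrays, but by far more on replicate 1. The ratios were -3.28 and -1.004, and Ccnd1 fell by 2.14 ± 1.61 (limma adjusted p = 9.85e-06; probe on chromosome 7, 152118192 to 152118262), a wt level 4.41-fold above that of IRF8 KO. With each array centred on its median the mean was -1.99 and no longer passed (limma adjusted p = 0.0756; 8.67e-06 to 0.0756 over its 7 alternatives). In that setting limma no longer gave every gene the same spread, so the SD of Ccnd1 itself entered its test. With loess normalization within arrays the mean was -1.97 and passed (limma adjusted p = 0.00074). The spread was not shared there either, since Cdc20, with a smaller mean of 1.88, had a lower limma adjusted p of 2.11e-05. A second Ccnd1 probe, listed on replicate 1 only, gave 961 in IRF8 KO cells and 9877 in wt cells (-3.39). Macrophage markers were also lower by far more on replicate 1 (-2.79) than on replicate 2 (-0.56), and their part in the Ccnd1 value was not tested. Ccnd2 had raw signals of 4827 and 8972 in IRF8 KO cells and 11766 and 11962 in wt cells. Its ratios of -1.31 and -0.81 gave -1.06 ± 0.36 and did not pass (adjusted p = 0.0968).

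Ccnd3 was the cyclin on which the probes disagreed. The probe annotated to its RefSeq transcript gave 47176 and 62338 in IRF8 KO cells, against 10088 and 22108 in wt cells, or 2.20 and 1.10. The second probe gave 5160 and 3888 in IRF8 KO cells, against 4575 and 7573 in wt cells, or 0.15 and -1.35. That second probe, assigned by UniGene cluster, lies at 47715925 to 47715995 of chromosome 17, 14420 bases before the span of the RefSeq transcript (47730415 to 47736638). Their mean, 0.52 ± 0.92, was not called (adjusted p = 0.598), whereas the RefSeq probe alone, at 1.65, passed (adjusted p = 0.00174), with its IRF8 KO signal on replicate 2 close to saturation. Without spots near the ceiling the other probe alone remained, at -0.60 (adjusted p = 0.494). Over the 7 alternatives, most of which average both probes, the adjusted p of Ccnd3 ran from 0.00174 to 0.767. The value of Ccnd3 therefore depends on the probe. RefSeq windows of Ccnd3 begin at both 47504801 and 47593217 of chromosome 17 (plus strand, build GRCm38.p6). Whether the UniGene probe lies within a longer Ccnd3 transcript was not examined. Ccnh, the partner of Cdk7 in the kinase that activates CDKs, was listed on replicate 2 only, at 2458 in IRF8 KO cells and 2450 in wt cells (-0.39, against a median of -0.05 for the genes listed on that array only).

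**Figure D2:**
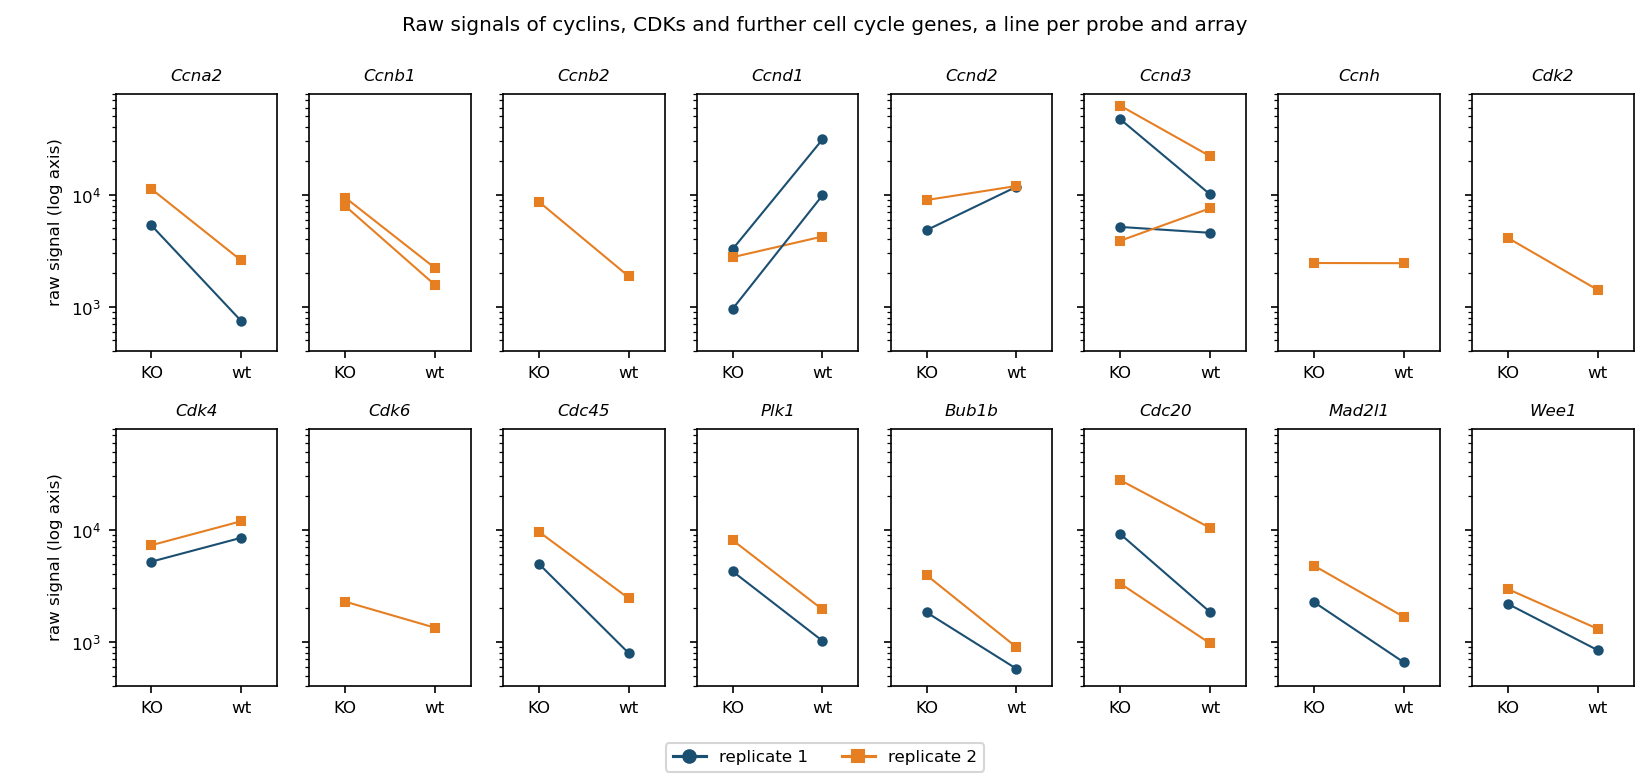
Raw signals (log axis) in IRF8 KO and wt cells for cyclins, CDKs and further cell cycle genes, a line for each probe and array, with circles for replicate 1 and squares for replicate 2. Lines of Ccna2, Ccnb1, Ccnb2, Cdc45, Plk1, Bub1b, Cdc20 and Mad2l1 lie higher in IRF8 KO, lines of Ccnd1, Ccnd2 and Cdk4 higher in wt, and those of the 2 Ccnd3 probes part.

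Of the kinases, Cdk4, the partner of the D-type cyclins, had raw signals of 5197 and 7289 in IRF8 KO cells, against 8485 and 11925 in wt cells. The wt signal was the brighter on both arrays, yet its mean of -0.92 ± 0.26 did not pass (adjusted p = 0.19). Cdk2, the S phase kinase, was listed on replicate 2 only, with 4118 in IRF8 KO cells and 1416 in wt cells (1.15). Cdk6 stood at 0.38 on that array alone. The inhibitors had no call. Cdkn1a, the p21 inhibitor, gave 0.19 and 0.09 (mean 0.14 ± 0.07; adjusted p = 0.919), and Cdkn2d, an INK4 inhibitor of Cdk4 and Cdk6, gave 0.61 on replicate 2 only, from a probe that matched 2 gene IDs. Cdk1 is not analysed here.

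Licensing and origin firing genes lay mostly above all genes, with 1 call among 5. Cdc45, which joins the Mcm helicase when an origin fires, had raw signals of 4960 and 9600 in IRF8 KO cells, against 793 and 2447 in wt cells. It rose 4.29-fold (2.10 ± 0.73; limma adjusted p = 1.5e-05; probe on chromosome 16, 18780570 to 18780640), with the IRF8 KO signal brighter on both arrays. The call was kept with centred arrays, loess and an intensity trend, the alternatives that could alter it. Mcm6, a subunit of the helicase, gave 0.85 and 0.81, the closest pair of ratios in the class. Its mean of 0.83 ± 0.03 missed the threshold (adjusted p = 0.265) and passed with loess normalization within arrays (1.04, adjusted p = 0.00992; 0.00992 to 0.286 over 7 alternatives). Mcm5 (0.77), Mcm2 (0.44) and the licensing factor Cdc6 (1.11) were listed on replicate 2 only, all above 0. The Cdc6 value is the mean of 2 probes, at 0.98 and 1.23, that share the same position and so are no independent check.

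The origin recognition complex went no single way. Orc6 stood at 0.48 ± 0.25 (adjusted p = 0.651), Orc4 at -0.17 ± 0.60 (adjusted p = 0.91) and Orc5 at -0.80 on replicate 2 only. A second Orc4 probe gave 0.31 on replicate 2, where the first gave -0.59. Pcna, the sliding clamp of DNA polymerase, was among the brightest members, at 30134 and 37862 in IRF8 KO cells and 16061 and 30905 in wt cells. Its ratios of 0.88 and -0.10 gave 0.39 ± 0.69, which did not pass (adjusted p = 0.746). The class median lay 0.68 above all genes for the mean of the arrays, and 0.82 and 1.08 above them on replicates 1 and 2.

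Among the 4 spindle checkpoint genes, Bub1b and Mad2l1 rose and the other two did not pass. Bub1b, which encodes the BubR1 inhibitor of the anaphase-promoting complex, had raw signals of 1833 and 3937 in IRF8 KO cells, against 576 and 899 in wt cells. Its ratios of 1.64 and 1.74 were almost equal, for a 3.23-fold rise (1.69 ± 0.07; limma adjusted p = 0.00102; probe on chromosome 2, 118467084 to 118467154). Mad2l1, which encodes the Mad2 inhibitor of Cdc20, had 2259 and 4776 in IRF8 KO cells, against 656 and 1669 in wt cells. It rose 2.72-fold (1.44 ± 0.45; limma adjusted p = 0.00858; probe on chromosome 6, 66490698 to 66490768). Both calls held with centred arrays, loess and an intensity trend, the alternatives that could alter them. Their partners gave other values. Bub3, the binding partner of BubR1, had 650 and 1195 in IRF8 KO cells and 1024 and 1341 in wt cells, the brighter wt signal on both arrays, and a mean of -0.62 ± 0.09 that did not pass (adjusted p = 0.488). Mad1l1, which holds Mad2 at unattached kinetochores, stood at 0.25 ± 0.10 (adjusted p = 0.855).

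In the anaphase-promoting complex, an activator rose and no subunit was called. Cdc20, which brings substrates to the complex in mitosis, had raw signals of 9157 and 27747 in IRF8 KO cells, against 1844 and 10407 in wt cells. It rose 3.15-fold (1.65 ± 0.89; limma adjusted p = 0.00139; probe on chromosome 4, 118109783 to 118109853), with the IRF8 KO signal brighter on both arrays. The call missed the threshold when eBayes allowed for a trend with brightness (adjusted p = 0.0515; 2.11e-05 to 0.0515 over 7 alternatives). A second Cdc20 probe, on replicate 2 only, gave 3315 in IRF8 KO cells and 969 in wt cells (1.38). The 7 subunits on both arrays (Anapc2, Anapc4, Anapc5, Anapc13, Cdc16, Cdc23 and Cdc27) ranged from -0.23 to 0.49, with 0 called. Among all genes 2.81% were called higher and 3.41% lower, so 0 of 7 does not set the subunits apart. Cdc27 was the highest (1.13 and -0.14; adjusted p = 0.632) and Cdc16 the lowest (0.08 and -0.53; adjusted p = 0.872). All 7 were below 0 on replicate 2, where the median of all genes was -0.42 and theirs -0.16. Fzr1, the activator of late mitosis and G1, stood at 0.26 and the subunit Anapc11 at -0.27, both on replicate 2 only.

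The genes of the DNA damage checkpoint and of CDK phosphorylation had 1 call among 11, against 2.81% higher and 3.41% lower among all genes. Plk1, a mitotic kinase that helps to switch on Cdk1 and the anaphase-promoting complex, had raw signals of 4250 and 8072 in IRF8 KO cells, against 1020 and 1944 in wt cells. It rose 3.60-fold (1.85 ± 0.26; limma adjusted p = 0.000209; probe on chromosome 7, 129313286 to 129313356), with ratios of 2.03 and 1.66. The call was kept with centred arrays, loess and an intensity trend, the alternatives that could alter it. Wee1, the kinase that holds Cdk1 inactive, had 2180 and 2955 in IRF8 KO cells, against 843 and 1307 in wt cells. At 1.06 ± 0.40 it missed the threshold (adjusted p = 0.0942), and it passed with centred arrays (1.22, adjusted p = 0.047) and with loess (1.22, adjusted p = 0.00232), in a range of 0.00232 to 0.103 over 7 alternatives. Pkmyt1, a related kinase, stood at 0.45 on replicate 2 only. Cdc25b, a phosphatase that opposes Wee1, gave 0.63 and -0.22 (adjusted p = 0.881).

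The p53, 14-3-3 and damage kinase genes of the same class had no call and values of either sign. Trp53, the p53 tumour suppressor gene, had raw signals of 4932 and 7442 in IRF8 KO cells and 6396 and 14848 in wt cells, with a mean of -0.89 ± 0.70 (adjusted p = 0.209). Gadd45b, a stress-induced gene, stood at -0.85 ± 0.49 (adjusted p = 0.242), and Gadd45g at 0.39 on replicate 2 only. Mdm2, the ubiquitin ligase of p53, gave 1.09 and -0.39, and Sfn, the 14-3-3 sigma gene, 0.95 and -0.92. The damage kinase genes Atr (-0.43 ± 0.74; adjusted p = 0.698) and Prkdc (-0.91, replicate 2 only) were not called or not tested. Of 6 further 14-3-3 genes, the 3 on both arrays ranged from -0.49 to -0.06, with 0 called. The median of the whole class lay 0.14 above all genes, with 0.26 and -0.09 on the single arrays, which thus differed in sign.

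Genes of the retinoblastoma and E2F branch, which controls the transcription of S phase genes, had 0 of 6 called. With 2.81% higher and 3.41% lower among all genes, that count does not set the branch apart. The activators E2f1 and E2f2 were the highest. E2f1 had 1953 and 3754 in IRF8 KO cells, against 918 and 1968 in wt cells, and its mean of 0.80 ± 0.37 (adjusted p = 0.29) passed only with loess (0.99, adjusted p = 0.013; 0.013 to 0.31 over 7 alternatives). E2f2 stood at 0.56 ± 0.59 (adjusted p = 0.561), from probes at 0.96 and 0.15. The repressors Rb1 (-0.23 ± 0.29) and Rbl2 (-0.23 ± 0.16) lay at the median of all genes, and Crebbp, an acetyltransferase, was the lowest at -0.47 ± 0.45 (adjusted p = 0.656). E2f3, Ep300 and Hdac2, on replicate 2 only, lay between -0.32 and 0.10.

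In the SCF ubiquitin ligase, which degrades G1 regulators, Skp2 (0.06), Rbx1 (-0.13) and Cul1 (-0.54 ± 0.49; adjusted p = 0.578) were not called, and Skp1 stood at -0.19 on replicate 1 only. Of cohesin, the ring that holds sister chromatids together, 1 gene was on both arrays, Smc1a at 0.49 ± 0.56 (adjusted p = 0.635). On replicate 2 only, Stag2 (0.63), Rad21 (0.51), Stag1 (0.33) and Smc3 (0.05) lay above 0, and Pttg1, the securin gene, stood at -0.67 with 1583 in IRF8 KO cells and 1925 in wt cells. Pttg1 thus differed in sign from the B-type cyclins on the same array. The upstream signals had 0 of 5 called, between -0.52 and 0.12. Myc had the widest disagreement between arrays of any member. Its brighter probe gave 8117 and 15083 in IRF8 KO cells, against 4781 and 39314 in wt cells, and the mean of its probes was 0.80 on replicate 1 and -1.84 on replicate 2, so no direction can be given (-0.52 ± 1.86; adjusted p = 0.602). Cdc14b, a phosphatase, stood at -0.05 (adjusted p = 0.972).

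**Figure D3:**
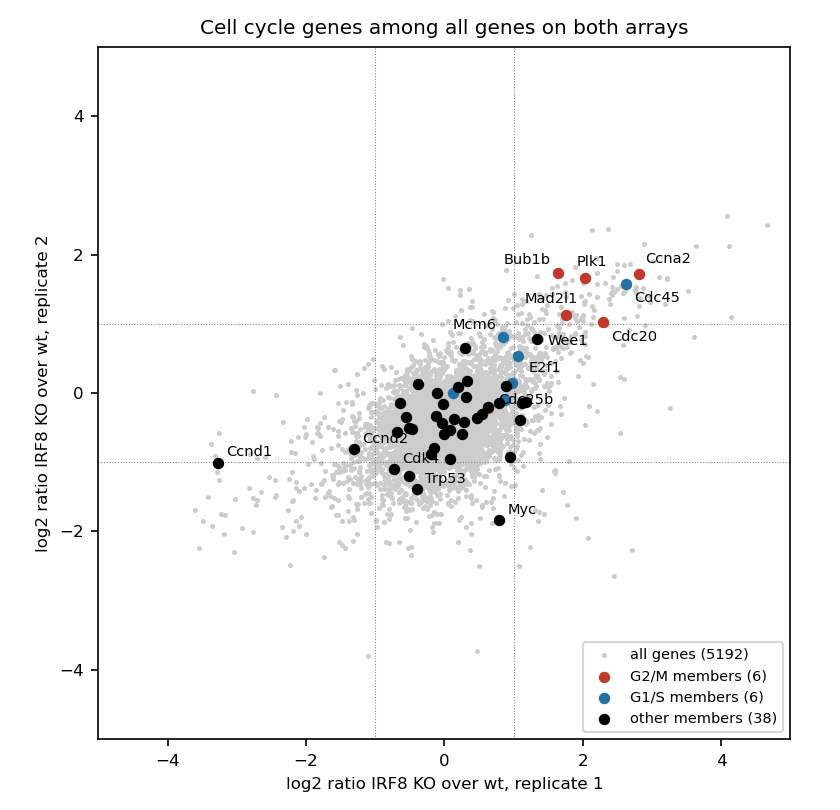
Log2 ratios of IRF8 KO over wt on replicate 1 (horizontal) and replicate 2 (vertical), with grey points for all 5192 genes, red for G2/M members, blue for G1/S members and black for other members, and dotted lines at 2-fold. The 6 members that rose lie in the upper right and Ccnd1 lies at -3.28 and -1.004, while Myc lies at 0.80 and -1.84.

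When the members on both arrays were regrouped by the phase in which their transcripts are known to peak in dividing cells, the G2/M genes stood highest. Of 6 G2/M genes on both arrays (Ccna2, Plk1, Bub1b, Cdc20, Mad2l1 and Cdc25b) 5 rose, and all 6 lay above the median of all genes on both arrays. Their median was 1.88 above all genes, and 1.87 and 1.82 above them on replicates 1 and 2. Of 6 G1/S genes (Cdc45, Mcm6, E2f1, E2f2, Pcna and Skp2) 1 rose, all 6 lay above all genes on both arrays, and the median was 0.89 above them, from 0.90 and 0.77. Of the 38 members in neither list 0 rose and Ccnd1 fell, against 2.81% higher and 3.41% lower among all genes. Those counts do not set the 38 apart from all genes. Their median was 0.06 above all genes (0.06 and 0.04). Of the G2/M genes listed on replicate 2 only, Ccnb1 and Ccnb2 stood at 1.82 and Pkmyt1 at 0.45. Pttg1 stood at -0.67 and so went the other way, below the median of -0.05 for genes listed on that array only. The difference between the phase groups was not tested.

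Members listed on 1 array have a ratio and no test. Of the 26 on replicate 2 only, 4 (15.4%) were at least 2-fold higher in IRF8 KO cells, against 6.45% of the 2386 genes listed on that array only, and 0 were 2-fold lower, against 4.36%. The 4 were Ccnb1, Ccnb2, Cdk2 and Cdc6. The 26 ranged from -0.91 (Prkdc) to 1.82 (Ccnb1) with a median of 0.35, against -0.05 for the genes of that array only. Member probes missing from replicate 1 had lower signals on replicate 2 than those on both arrays, with medians of 2284 and 4718 in IRF8 KO cells and 1422 and 4324 in wt cells. A spot had to reach a signal of 100 in both channels to be listed.

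**Figure D4:**
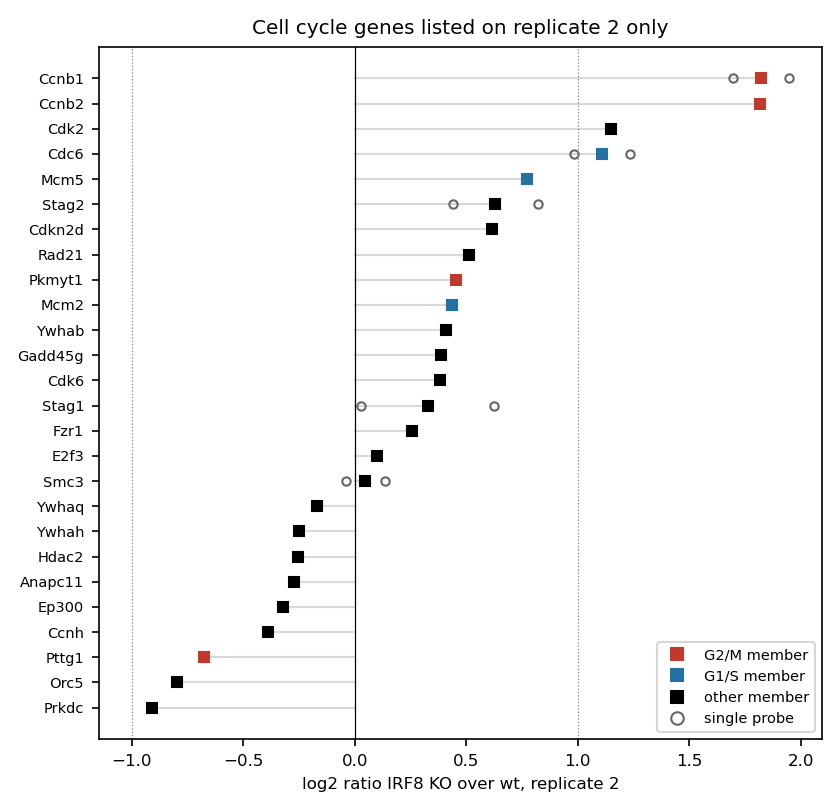
Log2 ratios of IRF8 KO over wt on replicate 2 (horizontal axis) for the 26 cell cycle genes listed on that array only; squares are genes (red G2/M, blue G1/S, black other), open circles single probes and dotted lines mark 2-fold. Ccnb1 and Ccnb2 stand highest at 1.82, and Pttg1, Orc5 and Prkdc lowest.

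Among all members with a window, 4 of 8 G2/M genes, 4 of 9 G1/S genes and 5 of 45 others held the CHR letters, against 20.2% of all genes and 14.5% of the genes on both arrays. A CCAAT box was present in 6 of 8, 7 of 9 and 23 of 45, against 41.1% and 43.6%. Both together were held by 10 of the 62 members, Cdc45, Plk1, Bub1b and Cdc20, which rose, and Bub3, Ccnb2, E2f2, E2f3, Mcm2 and Skp2, which were not called or were listed on 1 array. Ccnb2 held the CHR letters at 5 and -167 with 3 CCAAT boxes, at -87, -54 and -21, and Ccnb1 held 2 CCAAT boxes, at -99 and -67. Pttg1, which stood at -0.67, held none of the letters. The E2F letters were present in 0 of 8 G2/M genes, 4 of 9 G1/S genes (Mcm5, Mcm6, Cdc6 and E2f2) and 6 of 45 others, Cdk2 among them, against 2.7% of all genes and 4.45% of the genes on both arrays. These counts describe letters in the windows and were not tested, and binding was not measured.

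**Figure D5:**
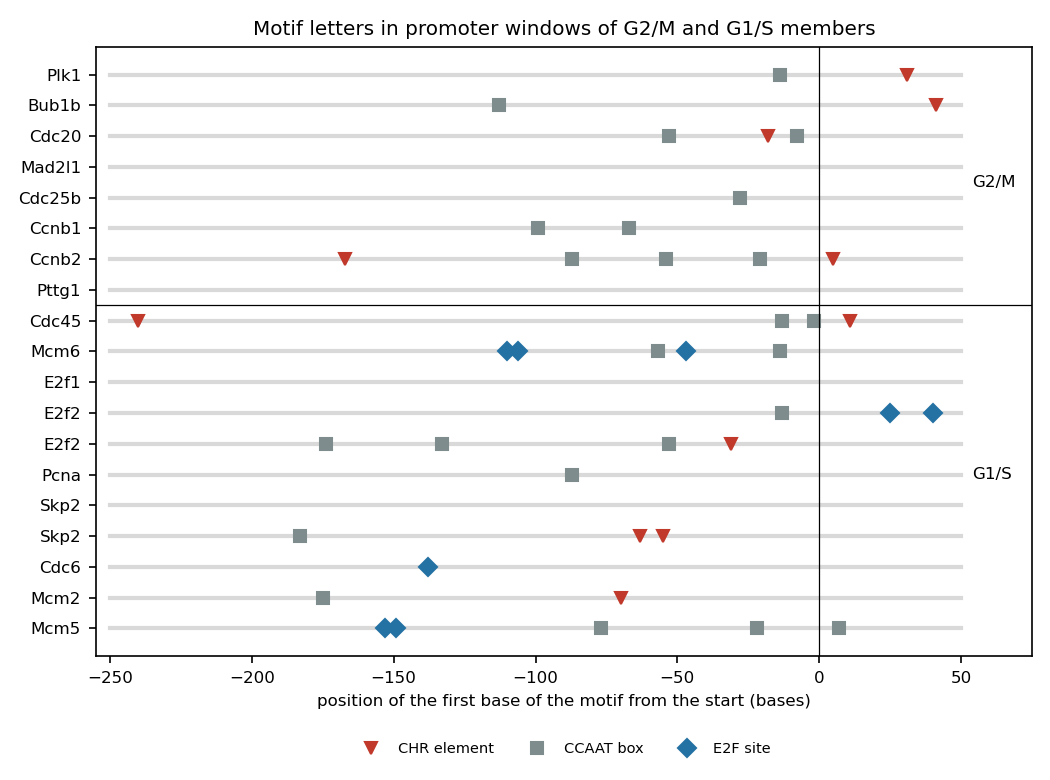
Position from the start (bases, horizontal axis) of the first base of each CHR element (triangle), CCAAT box (square) and E2F site (diamond) in the promoter windows of the G2/M members (upper block) and G1/S members (lower block); a gene with several windows has a line for each. E2F diamonds appear only in the lower block, and both triangles and squares are held by Plk1, Bub1b, Cdc20 and Ccnb2 of the upper block and by Cdc45, Mcm2, E2f2 and Skp2 of the lower block.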

How the data were processed

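RNA of IRF8 KO (Cy3) and wt (Cy5) cells was compared on 2 two-colour arrays. Per the file headers, the log2 ratios (Cy5 over Cy3) were normalized by the authors in the mAdb database with its median option. The deposited intensity values are raw signals, mean intensity minus median background, with spots below 100 or below 1 times background in either channel removed, per the file headers. Spots of mouse build 37 annotation were named through Entrez IDs, of which 8370 of 8459 were in the RefSeq gene table. The value table holds the same ratios with the replicate numbers exchanged against the array names, which were followed; means do not depend on this. Signs were turned to IRF8 KO over wt, and probes on both arrays were averaged per gene.

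For each gene, a two-sided test in limma 3.58.1 under R 4.3.3 (lmFit with an intercept, then eBayes) asked whether its mean ratio differed from 0, Benjamini-Hochberg adjusted over 5192 genes, threshold 0.05. The fit was also run on simulated ratios with 1 spread for every gene and no shift of an array. These arrays differ from that setting, so the simulation checks the running of the fit and not the calls. On the deposited ratios eBayes gave infinite prior degrees of freedom, so all genes share 1 spread. With centred arrays it gave 7.4, so the spread then differed between genes. Only 2 arrays limit the precision of every value, and where replicates share a source their spread may be technical. An exact sign-flip test of 2 arrays cannot reach 0.05, so none is given.

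Members, classes, phase lists, marker lists and motifs were chosen with earlier results of these data known. Named were all called members, all cyclins, CDKs and inhibitors, all Mcm and Orc genes, the highest and lowest of each class and members at least 2-fold on an array, with further members where a class is described. Alternatives were centred arrays, loess, the strongest probe, leaving out probes of several genes, dim spots (below 500) or spots near the ceiling (60000 or more), an intensity trend, a 2-fold rule and single arrays. No probe was named Irf8, so the targeted gene is not analysed here.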

Additional observations from a re-analysis of the deposited data

How the results depend on the processing

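The 6 calls of Ccna2, Cdc45, Plk1, Bub1b, Mad2l1 and Cdc20 kept direction and threshold under the alternatives with a test, except Cdc20 with an intensity trend (adjusted p = 0.0515). Each of the 6 rests on 1 probe listed on both arrays. The settings on probes and on dim or bright spots left that probe as it was. Only centred arrays, loess and the intensity trend therefore bear on these calls. The 1 lower call, Ccnd1, gave 0 calls with centred arrays, where the spread was no longer shared by all genes. Over all genes, centring left 79 lower calls in place of 177, and loess gave 381 higher and 277 lower. On single arrays, where only a 2-fold rule applies, 135 to 396 genes were higher and 281 to 643 lower, and 6 to 11 members were higher and 2 to 5 lower. The shift of the cyclins, -0.06, became 0.51 with the strongest probe and -0.63 without spots near the ceiling, since Ccnd3 then rests on 1 probe. The shift of the CDK inhibitors, which rests on Cdkn1a alone, moved from 0.349 to 0.048 with loess. The G1/S shift moved from 0.89 to 1.02 with the strongest probe. Single arrays gave shifts of 0.82 to 1.08 for licensing genes, 0.96 to 1.08 for the spindle checkpoint, 0.053 to 0.118 for upstream signals (-0.19 for the mean of arrays), 0.77 to 0.90 for G1/S and 1.82 to 1.87 for G2/M. Adding Fbxo5, a cell cycle gene outside the KEGG label, left 6 calls, an alternative chosen after seeing the data. Fbxo5 stood at 1.06 and 1.15 on replicates 1 and 2, above 2-fold on both but not called. Cdt1, a licensing gene added with Fbxo5, was on replicate 2 only, at -0.53, and could not be tested. Each ratio already sets IRF8 KO against wt within its array, so the main test is itself paired and there is no replicate block to add. The causes of these changes were not tested, apart from the probe choice of Ccnd3.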
